A study of Mus musculus with 6 samples.

Results

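The interleukin-6 (IL-6) family set described here has 10 genes, measured in CD31-positive tumour cells: the ligands Il6, Osm and Lif, the receptor chains Il6ra and Il6st, the transcription factor Stat3, and the feedback inhibitors Socs1, Socs2, Socs3 and Cish. They were chosen by name, out of a table of 23930 genes. The rule uses no measured value, though earlier results of these data were known when the set was put together. A row in the table was found for 9 of them and not for Socs1, so Socs1 is not analysed here. Cells of the mouse lung cancer line LLC (Lewis lung carcinoma) were injected under the skin of C57/Bl6 mice, and 2 weeks later the tumours were dissociated and cells stained for CD31 were collected by flow sorting. In 1 group the injected cells overexpressed BMP9, a ligand of the bone morphogenetic protein family, and in the other they were controls. Each group had 3 libraries, numbered 1 to 3 for control and 4 to 6 for BMP9 overexpression. The labels name neither the vector nor the promoter used for overexpression, nor the content of the control cells, the age of the mice, or which libraries came from separate tumours, so each p-value reflects the spread among these libraries alone, which may be technical. The question was how the IL-6 family and its feedback genes compare between sorted cells from BMP9-overexpressing and control tumours.

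Cytokines of the IL-6 family signal through a shared receptor chain, gp130, which Il6st encodes. IL-6 reaches gp130 by way of its own receptor Il6ra, whereas leukaemia inhibitory factor (Lif) and oncostatin M (Osm) use gp130 together with the chains Lifr and Osmr. Receptor-bound JAK kinases then phosphorylate STAT3, which turns on target genes. SOCS proteins are made in response and shut the signal down: Socs3 binds gp130 and the JAKs, while Cish and Socs2 are typical targets of STAT5 and act mainly on receptors for growth hormone and related cytokines. In tumours, macrophages and other stromal cells are common sources of IL-6 and oncostatin M.

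The start-site region of Il6 is shown because Il6 had the largest difference among the members, and those of Socs3 and Cish because they carry STAT motifs while their transcripts were near the limit of detection. Each holds 250 bases before and 50 after a RefSeq start site (GRCm38.p6), so the start site is base 251, and the first 270 bases are printed. Windows were at hand for 8 of the 10 members, and Osm and Socs2 had none. Capitals mark matches, on either strand, to 5 motifs: STAT (TTCNNNGAA), the NF-kB consensus, C/EBP (TTNNGNAAT), AP-1 (TGANTCA) and a CRE motif (ACGTCA). The Il6 window lies at chr5:30012864-30013163 (plus strand), those of Socs3 and Cish at chr11:117969317-117969616 (minus strand) and chr9:107296409-107296708 (plus strand). The Socs3 and Cish windows lie wholly inside the mm10 gene spans given below, downstream of the outer gene start. Their RefSeq start sites thus differ from that gene start, and their bases are not upstream of the whole gene.
Il6: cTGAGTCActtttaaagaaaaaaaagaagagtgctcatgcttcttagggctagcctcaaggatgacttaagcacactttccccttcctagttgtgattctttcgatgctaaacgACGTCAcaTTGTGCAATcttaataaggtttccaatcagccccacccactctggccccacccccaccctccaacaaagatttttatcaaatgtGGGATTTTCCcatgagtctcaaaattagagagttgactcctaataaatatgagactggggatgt
Socs3: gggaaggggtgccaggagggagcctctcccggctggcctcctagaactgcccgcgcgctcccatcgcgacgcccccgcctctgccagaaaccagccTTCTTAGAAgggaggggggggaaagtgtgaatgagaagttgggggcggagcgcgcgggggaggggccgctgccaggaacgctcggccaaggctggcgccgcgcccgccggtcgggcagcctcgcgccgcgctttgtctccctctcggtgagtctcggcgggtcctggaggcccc
Cish: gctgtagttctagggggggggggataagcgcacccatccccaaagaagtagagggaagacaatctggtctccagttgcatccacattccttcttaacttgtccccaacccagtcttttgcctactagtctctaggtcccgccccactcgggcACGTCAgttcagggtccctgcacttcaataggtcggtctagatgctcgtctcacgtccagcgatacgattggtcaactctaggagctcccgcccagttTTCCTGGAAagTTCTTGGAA

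The Il6 window held 1 match each to AP-1 (bases 2 to 8), CRE (115 to 120), C/EBP (123 to 131) and the NF-kB consensus (207 to 216). Among 32851 windows of the same 300 bases, 7.81%, 7.51%, 11.5% and 4.51% held a match to these motifs. The Socs3 window held 1 STAT match (97 to 105) and the Cish window 2 (251 to 259 and 262 to 270). Of the 8 member windows, only those of Socs3 and Cish held a STAT match. Among all windows the share was 8.3%, which is no test here because these windows were shown for holding the motif. The Cish window also held a CRE match (153 to 158). Of the other windows, Lif had 1 AP-1 match and Stat3 1 C/EBP match, and those of Il6ra, Il6st and Socs1 had 0 matches to any of the 5. A match describes the letters only and says nothing about binding. No 2 matches in these windows overlapped.

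Values are reads of a gene scaled to the depth of its library (reads per 1e+06 reads, RPM), from a panel that reads 1 short segment of each gene. Libraries held between 1321762 and 28380957 reads, a 21.5-fold range in which BMP9 replicate 6 was the deepest. BMP9 replicates 5 and 6 carry a later run time stamp than the other 4 libraries. Pecam1, which encodes CD31, averaged 448 ± 84.3 RPM over the control and 303 ± 53.5 RPM over the BMP9 libraries (SD, n = 3 per group). The groups did not overlap, with 363 to 532 RPM in control and 247 to 353 RPM in BMP9 libraries. The difference missed the threshold (log2 fold change -0.56, limma adjusted p = 0.12). It was negative in all 19 alternatives (-0.84 to -0.30), and 0 of them called it. Of the other sort checks, 8 of 12 endothelial markers were below the level needed for testing. Those 12 summed to 67.6 to 110 RPM in control libraries and to 105 to 129 RPM with BMP9. Eng gave the largest part (means 48.2 and 78.4 RPM). Eng and Flt1 were higher without overlap, and Kdr, Esam, Egfl7 and Robo4 lower without overlap, the last 3 too low to test. The called members went opposite ways: of the vessel growth factor receptors, Flt1 rose (log2 fold change 1.83, limma adjusted p = 0.0058) and Kdr fell (-1.32, adjusted p = 0.025). Flt1 passed in 15 of 18 alternatives and Kdr in 11 of 18. Kdr reached the level needed for testing only through the control libraries, and its call was lost with TMM scaling (-1.11, adjusted p = 0.065). Cdh5, the endothelial cadherin, averaged 9.81 and 6.15 RPM and was not called (adjusted p = 0.34). Macrophage and monocyte markers (15 genes) summed to 4840 to 7403 RPM in control libraries and to 19050 to 25174 RPM with BMP9, and 12 of the 13 tested rose. T and NK cell markers (13 with a row) summed to 4980 to 5527 and to 656 to 1074 RPM. All 13 fell, though the groups overlapped for Cd4. Among all genes tested 12.7% were called higher and 22.5% lower. Median log2 fold changes were 1.87 for the macrophage and monocyte markers and -2.85 for the T and NK cell markers. Within the earlier run time stamp, which holds BMP9 replicate 4 alone of its group, these medians were 2.53 and -2.31. Neutrophil markers (10 genes) summed to 188 to 223 and to 432 to 473 RPM, with 5 of 6 tested higher and 1 lower. Of the neutrophil genes too low to test, Mpo was at 0 in every library, and Ly6g and Elane were at 0 in control and below 1 RPM with BMP9. Cxcr2, also too low to test, averaged 1.91 and 5.33 RPM, and its groups did not overlap. The values below therefore describe a leukocyte-rich sorted fraction, in which fewer cells of a type and less RNA per cell cannot be told apart.

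Of the 9 measured members, 6 were high enough to be tested, reaching 5 RPM in 3 or more libraries, and Socs2, Socs3 and Cish were not. By limma with p adjusted over all 9460 genes tested and a threshold of 0.05, Il6, Osm and Il6st were higher with BMP9 overexpression. Lif, Il6ra and Stat3 did not pass. Across all genes tested 35.2% were called, 12.7% higher and 22.5% lower, and the groups did not overlap for 48.1%, 16.8% of them with BMP9 libraries above control. The groups did not overlap, with BMP9 libraries above, for 4 members (Il6, Osm, Il6st and Stat3). Il6 passed the filter only through the BMP9 libraries, where it was high, so the share of members called is a description and not support. The median log2 fold change of all genes tested was -0.24 as deposited and 0.0039 after TMM scaling, so each member's change reads about that much larger relative to the typical gene.

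**Figure D1:**
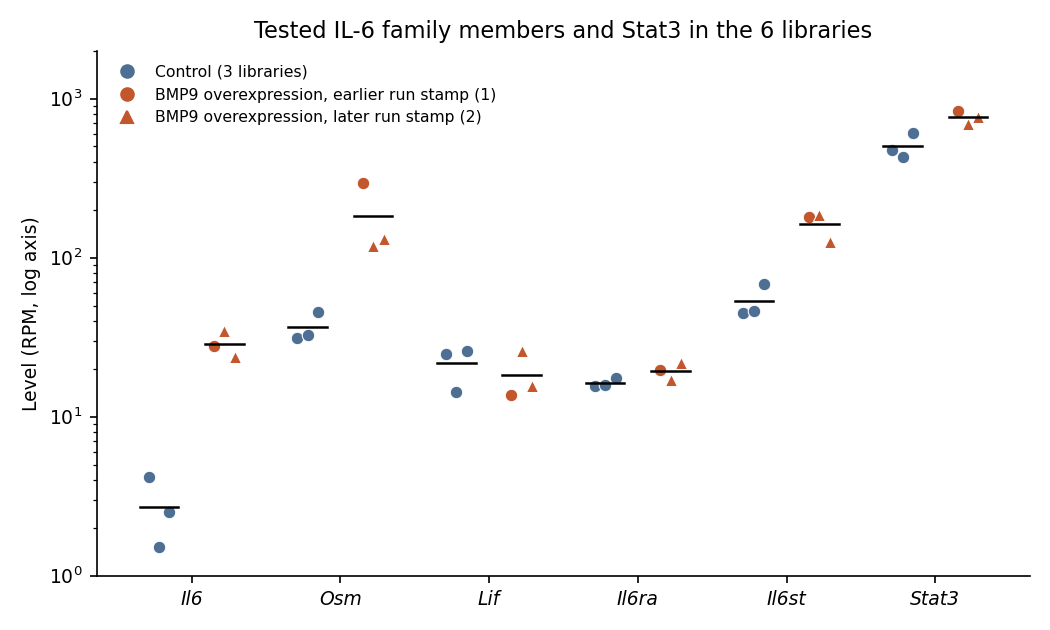
Level of each tested member in RPM on a log axis, with 1 point per library (blue, control; orange, BMP9 overexpression; triangles, the 2 with the later run time stamp) and a black line at the group mean. Il6, Osm, Il6st and Stat3 have all 3 BMP9 libraries above all 3 control libraries, and Lif and Il6ra overlap.

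Among the ligands, Il6 (chromosome 5, 30013114 to 30019981, mm10) had the largest difference. It was at 4.15, 1.51 and 2.5 RPM in control replicates 1, 2 and 3, which were 19, 2 and 5 reads. It was at 27.9, 34.5 and 23.8 RPM in BMP9 replicates 4, 5 and 6, which were 55, 152 and 676 reads. Every BMP9 library was well above every control library, with the lowest BMP9 value 5.75 times the highest control value. The means were 2.72 ± 1.33 and 28.7 ± 5.38 RPM (SD, n = 3 each), and the ratio of means was 10.6. The log2 fold change was 3.04 (SE 0.37, 95% interval 2.25 to 3.84, limma adjusted p = 3.1e-05), which ranked 64 from the top among 9460 genes. The size of this change depends on the pseudocount because control levels are low: it was 2.13 with a pseudocount of 5 and 3.5 by edgeR on reads. Within the earlier run time stamp, which leaves BMP9 replicate 4 against the 3 controls, it was 3.02.

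Osm (chromosome 11, 4236420 to 4241026), oncostatin M, which activated myeloid cells and T cells secrete, rose as well. Control libraries gave 31.4, 32.5 and 45.5 RPM and BMP9 libraries gave 297, 118 and 132 RPM. The groups were separate, and BMP9 replicate 4 stood well above the other 2 BMP9 libraries. The means were 36.5 ± 7.83 and 182 ± 99.5 RPM (SD, n = 3 each). This is a log2 fold change of 2.18 (SE 0.34, 95% interval 1.45 to 2.91, limma adjusted p = 0.00023). The change was 3.01 within the earlier run time stamp, which holds replicate 4 alone of the BMP9 group, and 1.77 (adjusted p = 0.0002) without that library.

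Lif (chromosome 11, 4257557 to 4272514), the leukaemia inhibitory factor, did not pass the test. Control libraries gave 24.9, 14.4 and 26.0 RPM and BMP9 libraries 13.7, 25.9 and 15.6 RPM, so the groups overlapped almost fully. The log2 fold change was -0.24 (SE 0.36, limma adjusted p = 0.63), with a fold interval of 0.5 to 1.44. The sign turned with scaling, to 0.0047 after TMM and 0.049 after quantile normalization. Most other ligands of the family were below the filter. Of 7 with a row, Clcf1, a neurotrophic ligand, and Ebi3, a subunit of IL-27, were tested and neither passed (log2 fold changes -0.61 and 0.23, limma adjusted p = 0.22 and 0.66). Il27 averaged 1.38 and 1.88 RPM, Il11 and Ctf1 were under 1 RPM in every library, and Il31 was listed at 0 throughout.

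Of the receptor chains, Il6st (chromosome 13, 112464070 to 112510086), the shared signal-transducing chain gp130, rose. The control libraries gave 45.2, 46.2 and 68.5 RPM, and the BMP9 libraries 179, 185 and 126 RPM. All BMP9 values lay above all control values, with a lowest-to-highest ratio of 1.84. The means were 53.3 ± 13.2 and 164 ± 32.6 RPM (SD, n = 3 each). This is a log2 fold change of 1.61 (SE 0.29, 95% interval 0.999 to 2.21, limma adjusted p = 0.00059), and 1.76 within the earlier run time stamp.

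Il6ra (chromosome 3, 89864059 to 89913196), the chain that binds IL-6 itself, was nearly level in all 6 libraries. Control libraries gave 15.5, 15.9 and 17.5 RPM and BMP9 libraries 19.8, 17.0 and 21.6 RPM. The lowest BMP9 value was below the highest control value, and the log2 fold change of 0.24 (SE 0.31, limma adjusted p = 0.58) leaves a fold interval of 0.74 to 1.87. The difference between Il6st and Il6ra in their response was not tested as such.

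The other receptor chains were mixed. Il31ra, the IL-31 receptor, which signals without gp130, went from 0.77 ± 0.684 to 5.99 ± 1.29 RPM (SD, n = 3 each), and Il11ra1, the IL-11 receptor, from 3.99 ± 0.522 to 10.2 ± 2.28 RPM. Their log2 fold changes were 2.05 and 1.15 (limma adjusted p = 0.0021 and 0.022), and both passed the filter only through the BMP9 libraries. The Il11ra1 call was lost without control replicate 1 (1.15, adjusted p = 0.067), control replicate 3 (1.08, adjusted p = 0.069) or BMP9 replicate 4 (0.999, adjusted p = 0.053). Within the earlier stamp neither passed (1.86 and 1.46, adjusted p = 0.09 and 0.063). Lifr, the partner chain for Lif, did not pass (0.34, adjusted p = 0.56). Osmr, the partner chain for oncostatin M, gave 2.4, 0 and 0 RPM in the control libraries against 1.01, 1.13 and 0.846 RPM with BMP9. Il27ra, a receptor of lymphocytes, lay below the filter but its groups did not overlap, with 6.98, 18.9 and 4.5 RPM in the control libraries against 2.03, 1.13 and 1.09 RPM with BMP9.

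A list of 3 genes covers the shedding of the IL-6 receptor from the cell surface. Rhbdf2, which brings the protease ADAM17 to the surface, rose from 92.7 ± 15.4 to 230 ± 13 RPM (SD, n = 3 each; log2 fold change 1.31, SE 0.26, limma adjusted p = 0.0012). The proteases themselves did not pass, with log2 fold changes of 0.39 for Adam17 (adjusted p = 0.39) and 0.11 for Adam10 (adjusted p = 0.76).

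Stat3 (chromosome 11, 100885098 to 100939540) had a small difference. The control libraries gave 477, 431 and 610 RPM, and the BMP9 libraries 835, 692 and 769 RPM. The groups did not overlap, although the lowest BMP9 value was only 1.14 times the highest control value. The log2 fold change was 0.61 (SE 0.26, 95% interval 0.051 to 1.16) and missed the threshold (limma adjusted p = 0.084). It passed in 4 of 19 alternatives: TMM scaling (0.86, adjusted p = 0.019), array weights (0.57, adjusted p = 0.02), edgeR (0.85, adjusted p = 0.024) and DESeq2 (0.84, adjusted p = 0.0056). Over all 19 the adjusted p ranged from 0.0056 to 0.22.

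Of 9 tested JAK kinases and other STATs, 2 fell and 0 rose, and the calls shifted with the setting. With TMM scaling Jak3 and Stat4 fell and Jak2 and Stat6 rose. Within the earlier run time stamp 2 fell, Jak3 and Tyk2, and 2 other STATs rose, neither of them Stat6. Jak3, the kinase of lymphocyte cytokine receptors, went from 299 ± 39.4 to 116 ± 33.7 RPM (SD, n = 3 each; log2 fold change -1.39, SE 0.28, limma adjusted p = 0.0013). Stat4, the IL-12 signal transducer of T and NK cells, went from 12.7 ± 8.29 to 2.07 ± 0.839 RPM (-2.01, adjusted p = 0.0032), and passed the filter only through the control libraries. Its call was lost within the earlier stamp (-1.58, adjusted p = 0.084), with the stamp as a covariate (-1.58, adjusted p = 0.054) and with no filter (-2.01, adjusted p = 0.055). Tyk2 and Jak2, kinases that also serve gp130, had values of -0.62 and 0.55 and did not pass (adjusted p = 0.097 and 0.12). Tyk2 passed within the earlier stamp (-0.99, adjusted p = 0.048), with the stamp as a covariate and with array weights, and Jak2 with TMM (0.80, adjusted p = 0.027), edgeR, DESeq2 and array weights. T and NK cell markers were lower in the same libraries, and their part in these values was not tested.

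The feedback genes of the set were at or near the limit of detection. Socs3 (chromosome 11, 117966079 to 117970047), the main inhibitor of gp130 signalling, had 3, 0 and 0 reads in control and 7, 2 and 25 reads in BMP9 libraries, or 0.655, 0 and 0 RPM against 3.55, 0.454 and 0.881 RPM. A level of 3 reads was 0.655, 2.27 and 1.5 RPM in the control libraries and 1.52, 0.68 and 0.106 RPM in the BMP9 libraries, so the groups cannot be separated at this depth. Pooled over a group, Socs3 had 3 reads of 7904976 in control and 34 of 34765122 in BMP9 libraries, a ratio of 2.58 with an exact 95% interval of 0.81 to 13.1. Such intervals cover counting error only, and BMP9 replicate 6 gave 25 of the 34 reads.

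Socs2 (chromosome 10, 95385362 to 95417180), the growth hormone receptor inhibitor, had 10, 0 and 1 reads in control and 2, 24 and 64 reads in BMP9 libraries. These were 2.18, 0 and 0.5 RPM against 1.01, 5.44 and 2.26 RPM, and the groups overlapped. The pooled ratio was 1.86 with an interval of 0.992 to 3.86. Cish (chromosome 9, 107296026 to 107302784), the STAT5-induced member, had 3, 0 and 0 reads in control and 0, 0 and 2 reads in BMP9 libraries, a pooled ratio of 0.152 with an interval of 0.0127 to 1.32. With no filter on low values, Socs2 and Socs3 had log2 fold changes of 1.05 and 0.97 and did not pass (limma adjusted p = 0.31 and 0.23). Low reads of a gene in this panel need not mean little transcript: C1qa, C1qb and C1qc, which encode the chains of 1 protein complex, averaged 0.285, 1464 and 8.06 RPM in the same BMP9 libraries. Whether the segments chosen for Socs3, Socs2 and Cish are read efficiently was not tested.

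**Figure D2:**
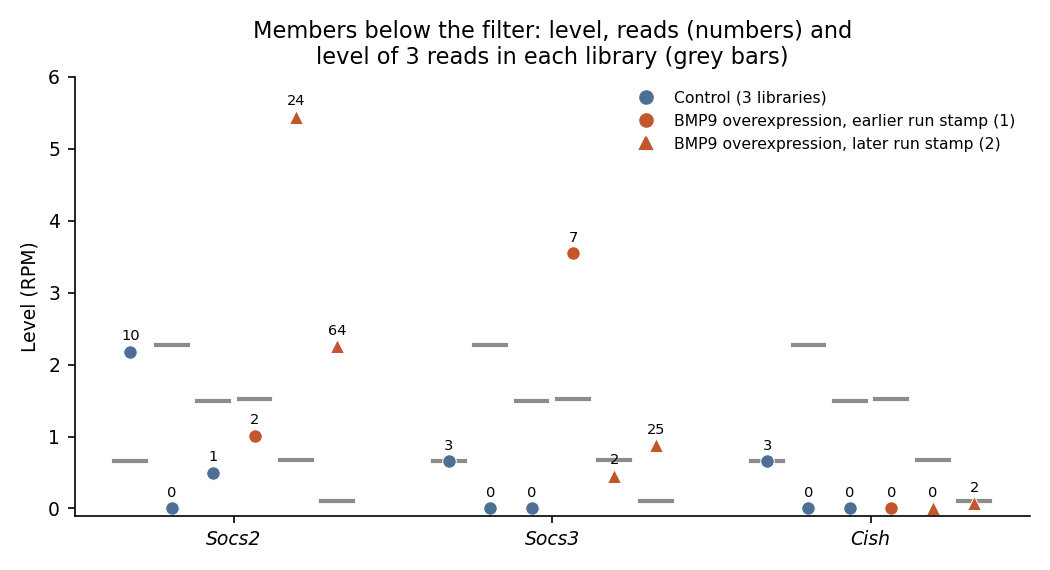
Level in RPM of the 3 members below the filter, with 1 point per library in the order control 1 to 3 and BMP9 4 to 6, the number of reads above each point and a grey bar at the level of 3 reads in that library. For Socs3 only BMP9 replicates 4 and 6 (7 and 25 reads) lie above the bar, and for Cish no library does.

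Other inhibitors of the pathway were measured at higher levels and did not pass. Of 9 tested SOCS, PIAS and phosphatase genes 0 were called in either direction (limma), and 1 had an unadjusted p under 0.05, namely Socs6 (15.4 ± 4.94 and 32.5 ± 17.5 RPM, SD, n = 3 each; log2 fold change 0.91, adjusted p = 0.1). Socs6 passed in 5 of 19 alternatives: quantile normalization, array weights, edgeR, DESeq2, and without BMP9 replicate 4 (1.40, adjusted p = 0.0054). Within the earlier run time stamp its sign turned (-0.064, adjusted p = 0.93). Ptpn2 and Ptpn1, phosphatases of JAK kinases, had -0.55 and 0.44 (adjusted p = 0.15 and 0.23), and Pias3, an inhibitor of STAT3, had -0.43 (adjusted p = 0.35).

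Genes known to respond to STAT3 were mixed. Of 15 tested, 5 rose and 2 fell, or 46.7% called against 35.2% of all genes tested, with a median log2 fold change of 0.82 against -0.24 for all genes tested. The number that rose was 10 with TMM scaling, 11 with DESeq2 and 7 within the earlier run time stamp. Vegfa, the main vessel growth factor, went from 33.7 ± 7.12 to 242 ± 60.6 RPM, and Cebpb, a transcription factor of inflammatory and myeloid genes, from 170 ± 34.3 to 1024 ± 241 RPM (SD, n = 3 each). Their log2 fold changes were 2.80 and 2.58 (limma adjusted p = 9e-06 and 1.2e-05). Hp, the acute-phase protein haptoglobin, rose by 2.41 (adjusted p = 0.00035), and Timp1 and Fos also rose, by 2.28 and 1.42. Myc, a driver of growth and proliferation, fell from 296 ± 85.3 to 91.4 ± 6.35 RPM (log2 fold change -1.64, adjusted p = 0.0004). Ccnd1, a cyclin of the G1 phase, fell as well (-1.12, adjusted p = 0.027), but its call was lost in 8 alternatives, among them TMM (-0.87, adjusted p = 0.082) and leaving out control replicate 1 (-0.96, adjusted p = 0.12), control replicate 2 (-1.13, adjusted p = 0.063) or BMP9 replicate 4 (-0.74, adjusted p = 0.075).

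The acute-phase genes Saa3, Lcn2 and Lrg1 lay below the filter. Saa3 had 0 reads in each control library and 9.12, 2.04 and 0.423 RPM (18, 9 and 12 reads) in the BMP9 libraries, the last of which is below the level of 3 reads in every control library. Lcn2 gave 0.218, 0 and 0 RPM (1, 0 and 0 reads) against 10.1, 10.2 and 3.63 RPM (20, 45 and 103 reads). Lrg1 gave 0.218, 1.51 and 0 RPM (1, 2 and 0 reads) against 6.58, 1.59 and 1.73 RPM (13, 7 and 49 reads). Of these 3, only for Lcn2 were all BMP9 values above the level of 3 reads in every control library. Many STAT3-responsive genes are also expressed by macrophages or neutrophils, or induced by tissue dissociation. The macrophage and neutrophil marker sums given above were higher in the same libraries. Of 6 neutrophil genes tested 5 rose, among them S100a8, S100a9 and Csf3r (log2 fold changes 3.38, 3.47 and 1.61). The other, Mmp9, fell (-1.56, limma adjusted p = 0.0016). S100a8 passed the filter only through the BMP9 libraries. Among all genes tested 12.7% were called higher. Summed levels of the dissociation-response genes were 3946 to 4999 RPM in control libraries and 4995 to 6906 RPM with BMP9, with 6 of 13 tested higher and 1 lower, and their part in these values was not tested.

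Of 7 tested genes known to respond to STAT5, 4 fell and 1 rose, or 71.4% called, with a median log2 fold change of -1.37. Among all genes tested 35.2% were called, 22.5% lower, with a median of -0.24. The list does not separate genes that STAT5 induces from genes that it represses, so these counts give no direction of STAT5 activity. Bcl2, a survival protein, went from 353 ± 116 to 55.8 ± 31.4 RPM, and Ccnd2, a cyclin, from 317 ± 84.3 to 72.7 ± 27.1 RPM (SD, n = 3 each). Their log2 fold changes were -2.73 and -2.14 (limma adjusted p = 5e-05 and 0.0001), and the kinase Pim2 had -1.78 (adjusted p = 0.0007). Il2ra, the IL-2 receptor alpha chain, fell by 1.37 (adjusted p = 0.0014), but missed the threshold within the earlier run time stamp (-0.90, adjusted p = 0.052). Bcl6, a transcriptional repressor, rose from 22.3 ± 6.91 to 109 ± 43.2 RPM (2.21, adjusted p = 0.00017). Bcl2 and Il2ra are also prominent in T cells, and the T and NK cell marker sums given above fell in the same libraries; their part was not tested.

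Of 6 genes that control the Il6 transcript, 3 rose and 1 fell, or 66.7% called. Among all genes tested 35.2% were called, 12.7% higher and 22.5% lower. Cebpb, given above, acts on the Il6 promoter. Zc3h12a and Zfp36, which encode proteins that destabilize the Il6 transcript, went from 49.4 ± 15.7 to 107 ± 23.9 RPM and from 415 ± 105 to 810 ± 149 RPM (SD, n = 3 each; log2 fold changes 1.12 and 0.98, limma adjusted p = 0.0096 and 0.013). Without control replicate 1 neither passed (1.02 and 0.88, adjusted p = 0.052 and 0.07), and without control replicate 3 Zfp36 did not (0.87, adjusted p = 0.063). The Zfp36 call was also lost with no filter (limma adjusted p = 0.06). Arid5a, which stabilizes the Il6 transcript, fell from 124 ± 21.5 to 53.5 ± 19.4 RPM (-1.24, adjusted p = 0.0057). Within the earlier run time stamp the Arid5a value was -0.71, and with the stamp as a covariate its call was lost (-0.71, limma adjusted p = 0.145).

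**Figure D3:**
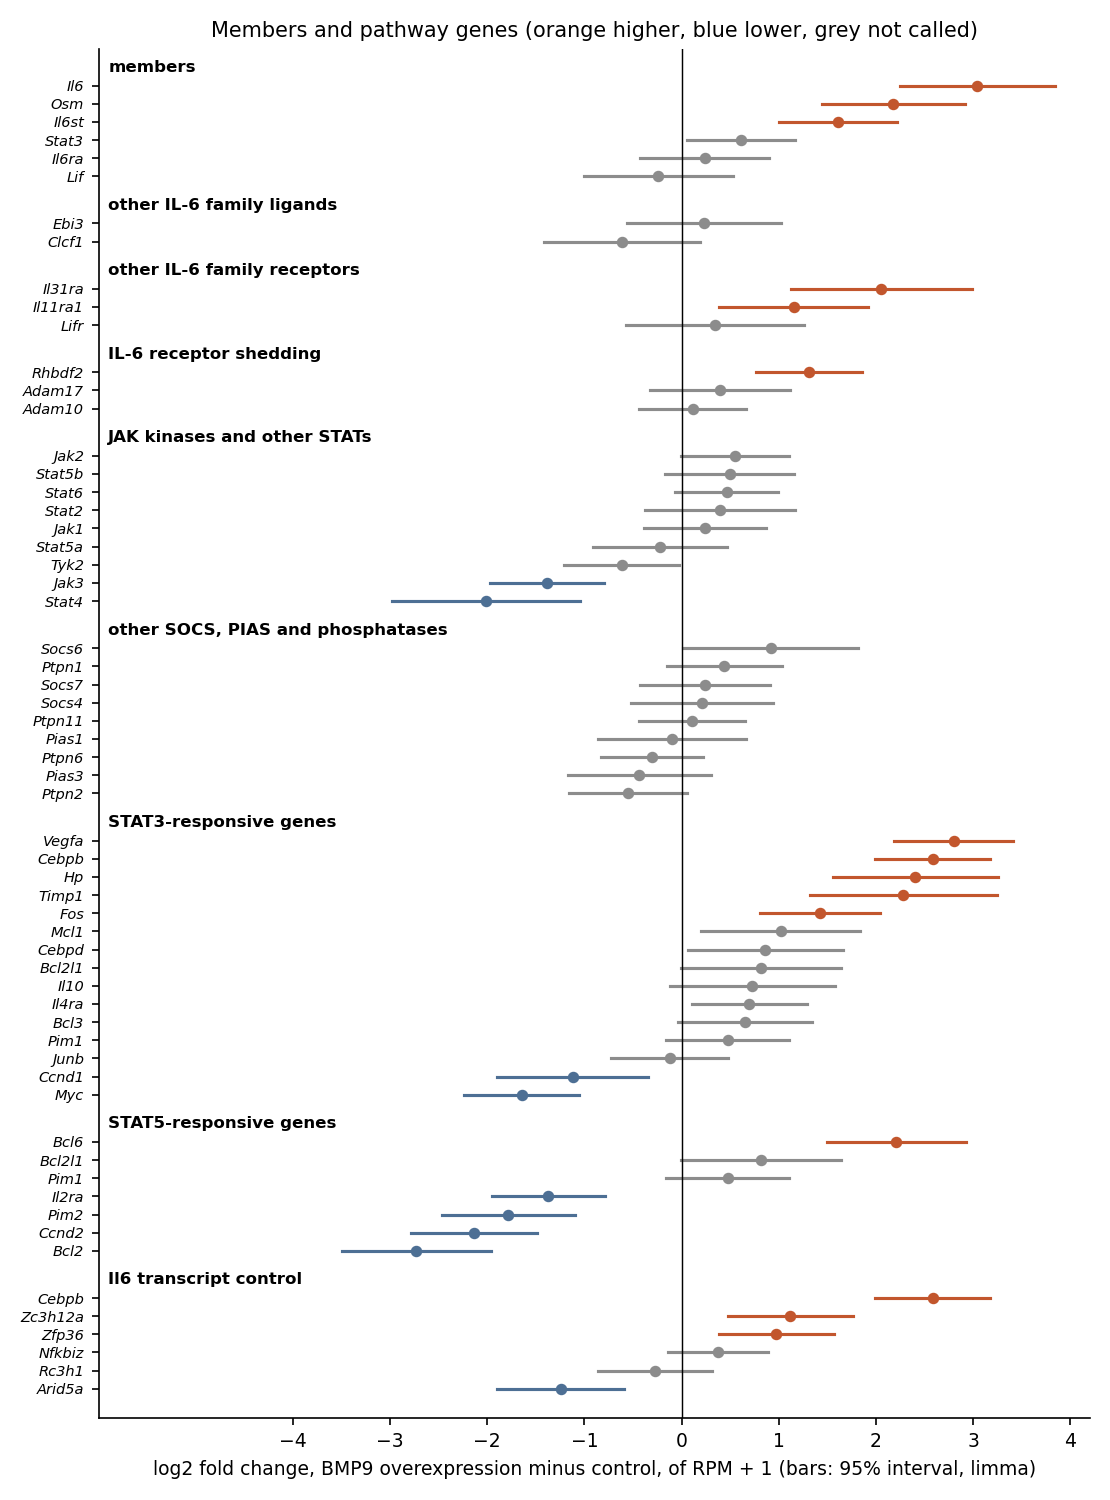
Log2 fold change of RPM + 1, BMP9 overexpression minus control, for the tested members and the tested genes of 8 pathway lists, with 95% limma intervals (orange, called higher; blue, called lower; grey, not called). Il6 (3.04), Osm (2.18) and Il6st (1.61) are the called members, and the STAT5-responsive genes lie mostly to the left of 0.

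Across the 8 pathway lists, which hold 65 genes, 51 were tested, 11 rose and 9 fell, or 39.2% called, against 35.2% of all genes tested. As deposited, the share called in either direction was close to that of the table as a whole. Of all genes tested, 12.7% were called higher and 22.5% lower. With TMM scaling 18 of the 51 rose and 8 fell, against 1629 higher and 1383 lower of all 9460 genes tested.

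Members were next set against the summed markers of macrophages and monocytes and of T and NK cells. Neutrophil markers, whose sums also did not overlap, were not used in this way. The macrophage and monocyte sum averaged 6375 RPM in control and 21670 RPM with BMP9. Lyz2 alone gave 4528 and 10540 RPM of it, a ratio of means of 2.33. Overlap or its absence on this scale thus depends on Lyz2, and the sum was not tested without it. Per 1000 RPM of macrophage and monocyte markers, Il6 was at 0.602, 0.313 and 0.338 in control and 1.34, 1.81 and 0.946 in BMP9 libraries. These did not overlap while Lyz2 was in the sum. Osm gave 4.57, 6.72 and 6.15 against 14.3, 6.20 and 5.23, and Il6st gave 6.56, 9.54 and 9.25 against 8.62, 9.73 and 5.01. Both overlapped on this scale, with log2 differences of 0.43 and -0.15 (2-sided exact permutation p = 0.5 and 0.7). For Il6 the log2 difference was 1.72, and Lif, Il6ra and Stat3 were lower, with -2.03, -1.53 and -1.17 and no overlap (2-sided exact permutation p = 0.1 each, the smallest that 3 against 3 libraries allow). Per 1000 RPM of T and NK cell markers all 6 tested members were higher without overlap, by 6.06 for Il6 to 2.30 for Lif on the log2 scale. That marker sum averaged 5246 RPM in control and 912 RPM with BMP9, so a gene of unchanged level comes out higher. Per macrophage and monocyte markers, whose sum rose, such a gene comes out lower, as Lif and Il6ra did. The direction alone therefore does not show a change of the member itself. Which cells carried the transcripts was not tested.

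**Figure D4:**
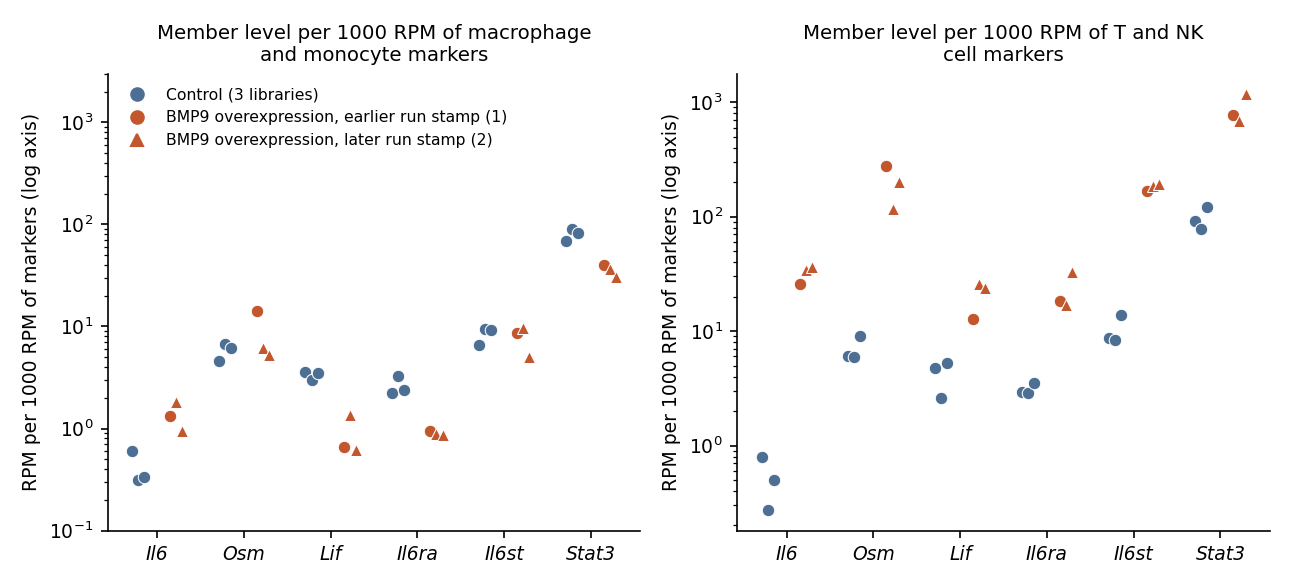
Level of each tested member per 1000 RPM of macrophage and monocyte markers and of T and NK cell markers, on log axes, with 1 point per library (blue, control; orange, BMP9 overexpression). Per macrophage markers, with Lyz2 in the sum, only Il6 is higher without overlap and Osm and Il6st overlap. Per T and NK cell markers all 6 are higher. Lyz2 is the largest part of the macrophage sum, and the T and NK cell sum is itself lower with BMP9.

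Members were also compared with each other within each library, as log2 ratios of RPM + 1, for 5 ratios. The ratio of Il6 to Il6st was -3.90 ± 0.64 in control and -2.46 ± 0.16 in BMP9 libraries (SD, n = 3 each), a difference of 1.44 (2-sided exact permutation p = 0.1). That of Osm to Il6st differed by 0.57 (exact permutation p = 0.4), or by 0.24 without BMP9 replicate 4 and 0.92 without BMP9 replicate 5, with BMP9 replicate 5, at -0.64, below all 3 control libraries. Ratios of Socs3 to Stat3 and to Socs2 differed by 0.36 and -0.08 (exact permutation p = 0.6 and 0.9), and that of Socs3 to Cish by 1.18 (exact permutation p = 0.1), all resting on few reads. The last was 0.68 without BMP9 replicate 4 and 0.37 with a pseudocount of 5. With 5 ratios compared and 0.1 as the smallest p, no difference could pass after adjustment.

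Among 6756 tested genes of at least 20 RPM on average, likeness to each member was measured as the Euclidean distance of centred log2 levels over the 6 libraries. Nearest to Il6 were Itga9 (0.546), an integrin chain, and the chemokines Ccl3 (0.603) and Ccl2 (0.717). Nearest to Osm were Lgals3 (0.44), P2rx7 (0.465) and Fcgr1 (0.481), and nearest to Il6st were Sept8 (0.25), Hk3 (0.344) and Cyp4f16 (0.368). For Stat3 they were Rab35 (0.167), Lamtor1 (0.192) and D930015E06Rik (0.228). Lif was nearest to Ppp2r1b, Txnl4a and Rapgef1, and Il6ra to Rsrc1, Aktip and Grpel2. These distances describe 6 libraries and carry no test.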

How the data were processed

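RNA of sorted CD31-stained tumour cells was profiled in 6 libraries, 3 per group, with an Ion AmpliSeq mouse transcriptome panel on Ion Torrent, per the labels' protocols. The authors deposited RPM per gene; the submitters' processing notes name genome build mm10, with the aligner and counter not given in the sources used here. RPM values gave back whole reads within 0.05 reads for 100% of nonzero values. Libraries held 1321762 to 28380957 reads. PCR reads carry no molecular identifiers, so intervals and floors (3 reads) cover counting error only.

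The 9460 genes reaching 5 RPM in 3 or more libraries were tested on log2(RPM + 1) with limma 3.58.1 (trend, R 4.3.3), Benjamini-Hochberg adjustment and a threshold of 0.05. Fold changes on this scale understate those of low genes. Alternatives, of which 18 were planned and 1 (thinning reads to the shallowest library) was added after seeing the data, covered filters, pseudocounts 0.5 and 5, scaling, array weights, trend, run time stamp, left-out libraries, and edgeR 4.0.16 and DESeq2 1.42.0 on recovered reads. Scripts were tested on simulated data. Few-value comparisons used exact permutation tests.

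Members and lists were chosen with earlier results of these data known. Named genes are all members, up to 4 tested genes per list with the smallest p, and the 3 most similar genes per member. Others (Timp1, Fos, Ccnd1, Il2ra, Saa3, Lcn2, Lrg1, C1qa, C1qb, C1qc, Flt1, Kdr, Stat6, S100a8, S100a9, Csf3r and genes named for low reads) were picked once values had been seen. The same holds for Lyz2, Mmp9, Eng, Esam, Egfl7, Robo4, Cxcr2 and Cd4. Gene coordinates are from the mm10 annotation, and start-site windows from RefSeq (GRCm38.p6).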

Additional observations from a re-analysis of the deposited data

How the results depend on the processing

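Over the alternatives that tested them, Il6 (18), Osm (19) and Il6st (19) kept their direction and call, and 0 members were called lower in any. Lif turned sign with TMM (0.0047), quantile normalization (0.049), edgeR (0.015) and DESeq2 (0.0063), without passing. Genes called numbered 3330, and 5102 with array weights. Genes called lower numbered 2130, against 1383 with TMM, 3351 with array weights and 1367 to 2312 when 1 library was left out, lowest without control replicate 1. The split of higher and lower calls was 1200 and 2130, against 1629 and 1383 with TMM, 1530 and 1532 with quantile normalization, 1693 and 1421 with edgeR and 1771 and 1546 with DESeq2. The median log2 fold change of all genes tested was -0.04 with no filter and with quantile normalization, 0.0039 with TMM, 0.015 with edgeR and 0.0024 with DESeq2. The ratio of Socs3 to Stat3 turned to -0.28 with a pseudocount of 5 and ran from -0.059 to 0.64 with 1 library left out. That of Socs3 to Socs2 ran from -0.96 to 0.70, with 0.18 without control replicate 2, 0.70 without BMP9 replicate 5 and 0.023 without BMP9 replicate 6. That of Il6 to Il6st was 0.59 with a pseudocount of 5. The cause was not tested. No paired analysis was possible because the groups share no replicate number (1 to 3 against 4 to 6). With 0 to 64 reads per library, Socs2, Socs3 and Cish stayed below the filter. The run time stamp and the group overlap in part, since the later stamp holds BMP9 libraries alone.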
